A study of Mus musculus with 10 samples.

Results

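Inwardly rectifying potassium channels pass current more easily into the cell than out of it, which sets the resting potential of heart muscle and shapes the end of the action potential. Kir2 channels carry the classical inward rectifier current. Kir3 channels open when G protein βγ subunits are released, for example after vagal acetylcholine binds its receptor in the atria and the sinoatrial node. Kir6 subunits assemble in equal number with a sulfonylurea receptor into the ATP-sensitive (KATP) channel, which opens when the ratio of ATP to ADP drops. The 9 genes described here encode the subunits of these families that are best known from the heart and were chosen by name. They are *Kcnj2* (Kir2.1), *Kcnj12* (Kir2.2) and *Kcnj4* (Kir2.3), *Kcnj3* (Kir3.1) and *Kcnj5* (Kir3.4), *Kcnj11* (Kir6.2) and *Kcnj8* (Kir6.1), and the sulfonylurea receptor genes *Abcc8* (SUR1) and *Abcc9* (SUR2). All 9 were among the 23195 genes of the deposited table.

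The table compares heart tissue of male mouse embryos at E13.5 (embryonic day 13.5). Of these embryos, 5 were labelled wildtype and 5 labelled Nos1ap_null, all of strain C57BL6/J. The null embryos are homozygous for a constitutive allele that lacks exon 4 of *Nos1ap* in every cell, made by germline recombination of a floxed allele, so neither group carries a tissue-restricted Cre. *Nos1ap* encodes an adaptor of neuronal nitric oxide synthase whose locus is known for its association with the QT interval. The table gives group means of normalized counts, that is, read counts divided by the size factor of their library. Counts of single libraries were recovered from these means for 8 of the 9 genes, and within a genotype the libraries are numbered by descending size factor, which is not the replicate number of the labels. The labels do not say whether the embryos came from separate litters, so a p-value measures only the spread between these samples.

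Judged by their size factors, the libraries held 11328000 to 14023000 counted read pairs. *Nos1ap* had 144 ± 14.4 normalized counts (SD, n = 5) in the wild-type and 39.8 ± 5.20 (n = 5) in the null libraries, with no overlap, a log2 fold change of -1.83 (SE 0.1204, adjusted P = 8.32e-09 by limma). Ventricular markers were abundant, with the authors' means for *Myh7* (a myosin heavy chain) at 128162 and 129864 and for *Myl2* (a ventricular myosin light chain) at 39677 and 39025.6 in wild type and null. Wild-type library 3 stood apart. Its sum over the 9 of 12 neuronal markers with recovered counts was 1299 normalized counts, against 108 to 134 in the other 9 libraries. Its skeletal muscle sum (5 of 7 markers) was 170 against 18.6 to 44.0. Its lung epithelium sum (3 of 6 markers) was 55.0 against 7.83 to 15.5. Null library 2 had the highest erythroid sum (4 of 7 markers), 527 against 107 to 321 elsewhere. Sums over pancreatic endocrine markers, the other tissue best known for *Kcnj11* and *Abcc8*, rested on *Ins2* alone and were 0 to 1.09. In heart tissue with its cell types pooled, fewer cells of a type and less RNA per cell cannot be told apart.

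The 7 Kir genes each encode a pore of the same kind, whereas the sulfonylurea receptors form no pore of the channel. The Kir pore is lined by a selectivity filter with the residues glycine, tyrosine or phenylalanine, and glycine. The bases around it are shown from the annotated transcripts (GENCODE M21, GRCm38), with the codon of the middle residue in capitals, because the residue it encodes separates the KATP pore subunits from the other 5. Bases around the codon differ as well. Each run of 24 bases lies within 1 coding exon.
Kcnj2: acaaccattggcTATggtttcagg
Kcnj12: accaccattggcTACgggctacgc
Kcnj4: acgaccattggcTACgggttccgg
Kcnj3: gccaccatcggcTATggctaccgc
Kcnj5: acaaccattgggTATggcttcaga
Kcnj8: gtgaccattgggTTTggagggaga
Kcnj11: gtgaccattggtTTCggcgggcgc

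The 5 Kir2 and Kir3 genes carry a tyrosine codon at this place, and the 2 Kir6 genes carry a phenylalanine codon. The runs lie at chr11:111072204-111072227 (*Kcnj2*, plus strand), chr11:61069607-61069630 (*Kcnj12*, plus), chr15:79485361-79485384 (*Kcnj4*, minus), chr2:55437624-55437647 (*Kcnj3*, plus), chr9:32322553-32322576 (*Kcnj5*, minus), chr6:142566442-142566465 (*Kcnj8*, minus) and chr7:46099490-46099513 (*Kcnj11*, minus). The longest identical run between the exons of any pair of the 9 genes was 32 bp, between *Kcnj4* and *Kcnj12*. The KATP genes are neighbours in pairs on the same strand. *Kcnj8* (chr6:142564837-142571614) lies 16247 bp from *Abcc9* (chr6:142587862-142702315), and *Kcnj11* (chr7:46093953-46100764) lies 3758 bp from *Abcc8* (chr7:46104523-46180033). Exons of *Kcnj3* (chr2:55435970-55598145) share 1621 bases with the antisense lincRNA *Gm26794*, which had 14.2 and 13.7 normalized counts in wild type and null. Exons of *Abcc9* share 158 bases with the antisense gene *5330439B14Rik*. The authors counted by strand.

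Per length, the G protein-gated subunit gene *Kcnj5* stood highest, at 199 normalized counts per kb of exon (the mean of both genotypes), above 83.3% of 16928 protein-coding genes. *Abcc9* (141 per kb) and *Kcnj11* (139 per kb) followed at nearly equal levels. *Kcnj3* was at 71.9 per kb, *Kcnj2* at 52.7 and *Kcnj12* at 35.8. *Abcc8* (25.1), *Kcnj8* (24.8) and *Kcnj4* (22.3) were lowest, the last above 38.8% of protein-coding genes. The highest and the lowest gene differed 8.93-fold in level per kb.

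**Figure D1:**
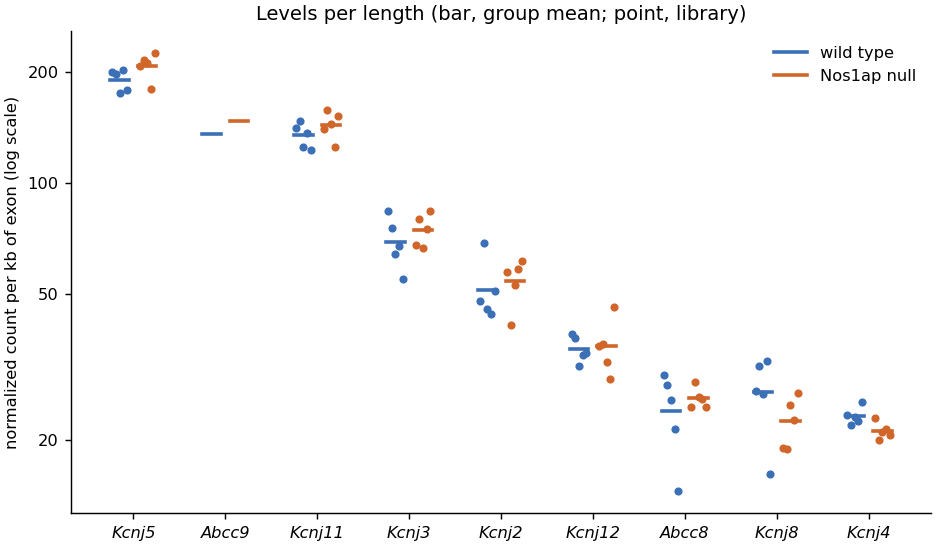
Normalized count per kb of exon on a log axis for the 9 genes, ordered by the mean of both genotypes; points are the 5 libraries of each genotype and bars the group means, with bars alone for *Abcc9*. The genes run from about 199 per kb for *Kcnj5* to 22.3 for *Kcnj4*, and the points of *Kcnj11* lie above all points of *Kcnj3*.

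The step from *Kcnj11* to *Kcnj3* was the clearest, since every library had more *Kcnj11* per kb and the ranges did not overlap. *Kcnj3* lay above *Kcnj2*, *Kcnj2* above *Kcnj12*, and *Kcnj12* above *Abcc8* in 10 of 10 libraries, although the ranges over libraries overlapped. *Abcc8* exceeded *Kcnj8* in 5 of 10 libraries and *Kcnj8* exceeded *Kcnj4* in 7 of 10, so these 3 genes could not be ordered. *Abcc9* has only group means, so its place beside *Kcnj11* has no spread. With other gene lengths the order of *Abcc9* and *Kcnj11* turned, as did that of *Abcc8* with its neighbours, while *Kcnj5* stayed first and *Kcnj4* last.

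No gene of the set passed the threshold of the comparison between genotypes, an adjusted P under 0.01 with an absolute log2 fold change over 1. That was 0 of 8 genes tested, and over all genes 0.0290% (3 of 10328) passed. At an unadjusted P under 0.05 stood 1 of the 8, *Kcnj5*, against 3.52% of all genes (364 of 10328). In 0 of 8 did the ranges of the genotypes separate, against 0.784% of all genes. The adjusted P by limma was 0.998 for each of the 8, and the voom form of limma also passed 0 of 8, with 1 at an unadjusted P under 0.05. The log2 fold change of the normalized count plus 1, null against wild type, was above 0 in 6 genes and below 0 in 2, with a median of 0.089 against -0.0044 over all genes tested. This median rested in part on 1 library, since it was 0.019 without wild-type library 5. It was 0.058 without wild-type library 3, 0.052 without null library 5 and 0.13 without wild-type library 2. The median absolute value was 0.12, against 0.056 over all genes. The SEs were larger too for most of the set. They were 0.057 for *Kcnj5*, 0.065 for *Kcnj11* and 0.103 to 0.174 for the others, against a median of 0.077 over all genes. The 95% intervals of 6 of the 8 genes lay within 0.5 log2 units either way. Those of *Kcnj8* and *Abcc8* reached -0.59 and 0.54. Differences of any size within these intervals remained possible with 5 libraries a group.

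**Figure D2:**
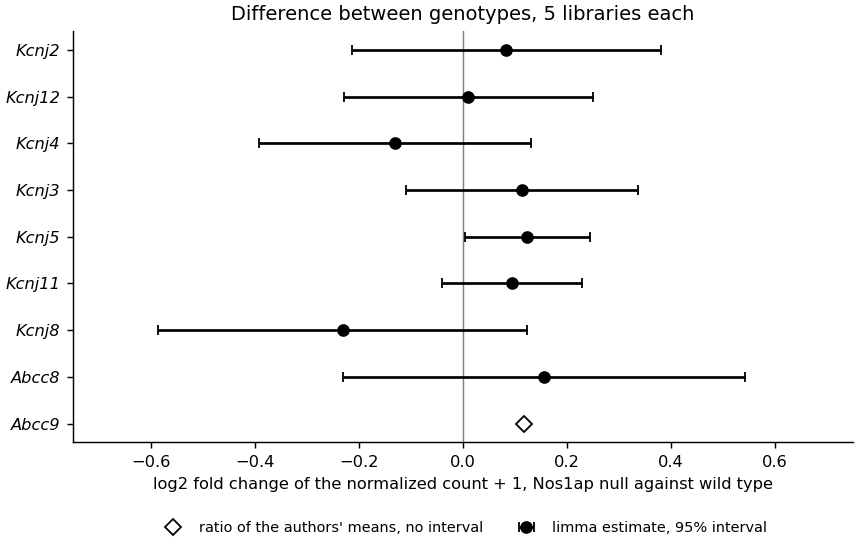
Log2 fold change of the normalized count plus 1, *Nos1ap* null against wild type, for the 9 genes; filled points are limma estimates with 95% intervals (5 libraries per genotype) and the open diamond is the ratio of the authors' means for *Abcc9*. All estimates lie between -0.23 and 0.16, and only the interval of *Kcnj5* leaves out 0, by 0.0041.

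Among the Kir2 genes, *Kcnj2* encodes the main pore subunit of the ventricular inward rectifier current, and its loss of function in people causes Andersen-Tawil syndrome. The wild-type libraries 1 to 5 had 260.1, 373.7, 247.3, 239.4 and 276.2 normalized counts of *Kcnj2*, and the null libraries 311.4, 224.2, 287.3, 316.8 and 334.4. Wild-type library 2 stood far above the other wild-type libraries, null library 2 lay below every wild-type library, and the groups overlapped. The means were 279 ± 54.5 (SD, n = 5) and 295 ± 42.9 (n = 5), a log2 fold change of 0.083 (SE 0.135, 95% interval -0.21 to 0.38, P = 0.549 by limma; exact permutation P = 0.619). With 1 library left out, the log2 fold change ran from 0.033 (without wild-type library 4) to 0.19 (without wild-type library 2). It was also moved by over 1.5 times without wild-type library 3 (0.045) or null libraries 2 (0.18), 4 (0.054) or 5 (0.035).

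*Kcnj12*, whose product assembles with Kir2.1, had 107.0, 104.5, 87.5, 93.9 and 95.2 normalized counts in the wild-type libraries and 99.0, 100.6, 89.7, 80.5 and 126.3 in the null libraries. The null libraries held both the lowest and the highest value. The log2 fold change was 0.011 (SE 0.115, interval -0.23 to 0.25, P = 0.925 by limma; exact permutation P = 0.873). Its sign turned without wild-type library 3 (-0.027), wild-type library 4 (-0.0020) or null library 5 (-0.079).

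*Kcnj4*, the third Kir2 gene, had the lowest mean of the set per length, though it could not be ordered against *Kcnj8* and *Abcc8*. Its values were the most even. They were 50.5, 47.4, 49.9, 48.5 and 54.8 normalized counts in wild type and 49.5, 43.2, 45.4, 46.2 and 44.7 in the null. All 5 null libraries lay below the wild-type mean, 4 of them below the lowest wild-type library, and null library 1 lay within the wild-type range. The means were 50.2 ± 2.83 (SD, n = 5) and 45.8 ± 2.34 (n = 5), a change of -8.83% in the null. The exact permutation test gave P = 0.0238, whereas limma gave a log2 fold change of -0.13 (SE 0.126, interval -0.39 to 0.13, P = 0.313). The counts behind these values were 41 to 58 read pairs a library, and the square root of such a count, its counting error, is 6.40 to 7.62, more than the SD between the libraries of either genotype. The limma fit, which draws the spread of a gene towards that of genes at the same level, had an SE wider than these SDs alone would give.

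**Figure D3:**
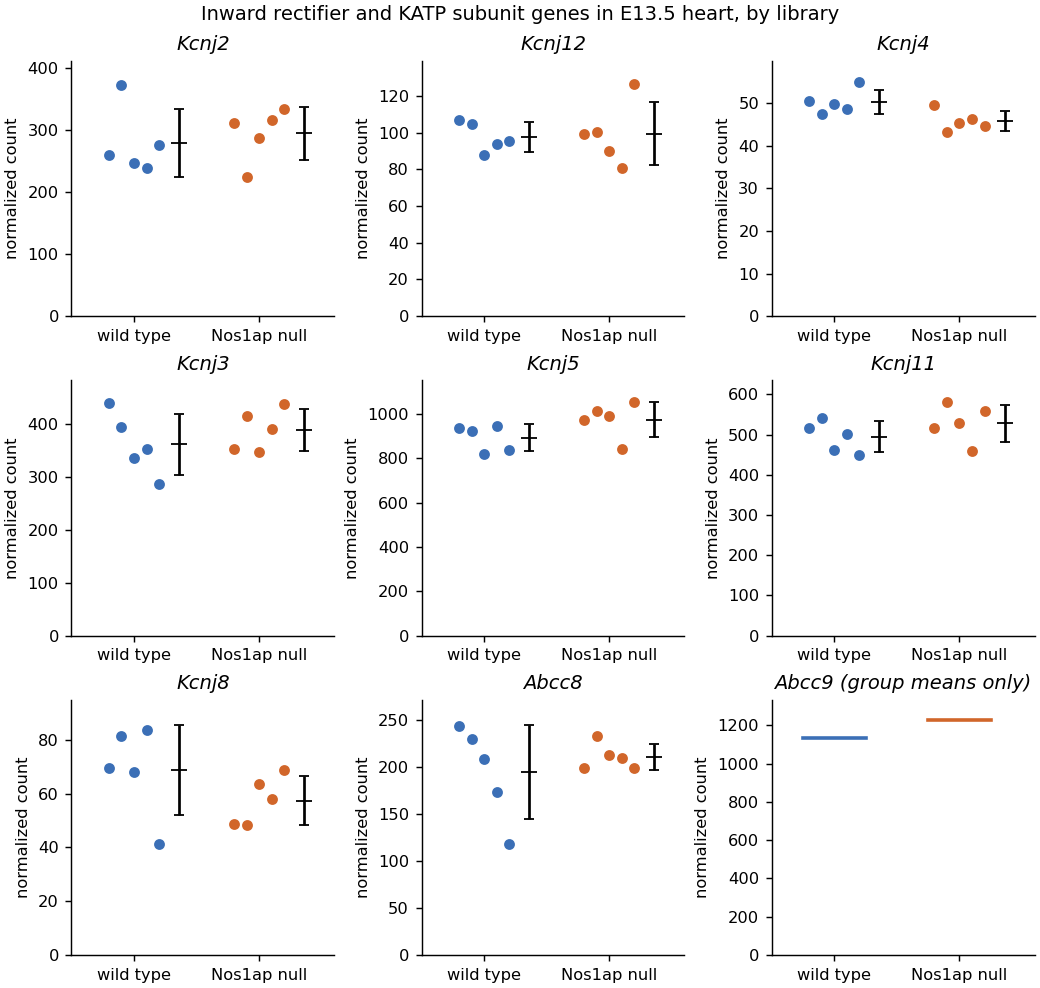
Normalized count (linear axes from 0) of the 9 genes by genotype; each point is 1 library, in order of descending size factor, the black bar is the mean ± SD (n = 5), and *Abcc9* has only the authors' means. The genotypes overlap for each of the 8 genes with points, and single low libraries stand out for *Kcnj8* and *Abcc8* in wild type (41.4 and 117.9).

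The Kir3 genes encode the 2 subunits of the acetylcholine-gated channel. *Kcnj5* had 938.7, 923.5, 820.4, 945.3 and 835.9 normalized counts in the wild-type libraries and 972.0, 1011.6, 992.1, 841.9 and 1053.2 in the null libraries. The null libraries lay above the highest wild-type library except null library 4, which lay near the lowest wild-type libraries 3 and 5. The means were 893 ± 59.8 (SD, n = 5) and 974 ± 79.8 (n = 5), 9.12% higher in the null, with a log2 fold change of 0.12 (SE 0.0571, interval 0.0041 to 0.24). The unadjusted P by limma was 0.0434 and the exact permutation P was 0.111. Without wild-type library 3, which had the high neuronal sum, the log2 fold change was 0.095 and the unadjusted limma P 0.109.

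*Kcnj3*, whose product needs a partner such as Kir3.4 to form a channel at the surface, had 438.5, 394.0, 334.9, 351.9 and 286.6 normalized counts in wild type and 352.8, 415.3, 346.8, 389.8 and 437.8 in the null. The wild-type values spanned the whole range of the null values. The means were 361 ± 57.9 (SD, n = 5) and 389 ± 39.2 (n = 5), a log2 fold change of 0.11 (SE 0.103, interval -0.11 to 0.34, P = 0.288 by limma; exact permutation P = 0.413). It was 0.035 without wild-type library 5, 0.070 without null library 5 and 0.19 without wild-type library 1. The ratio of *Kcnj5* to *Kcnj3*, per kb, was 2.79 ± 0.336 (SD, n = 5) in wild type and 2.81 ± 0.315 (n = 5) in the null.

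Among the KATP pore genes, *Kcnj11* encodes the subunit of the cardiac muscle channel and *Kcnj8* that of the vascular channel of smooth muscle and pericytes. *Kcnj11* had 516.8, 542.1, 461.1, 502.6 and 450.0 normalized counts in wild type and 515.7, 581.2, 529.3, 459.6 and 557.6 in the null. Null libraries 2 and 5 exceeded every wild-type library, and null library 4 lay among the lowest of both groups. The means were 495 ± 38.5 (SD, n = 5) and 529 ± 46.2 (n = 5), a log2 fold change of 0.10 (SE 0.0646, interval -0.040 to 0.23, P = 0.156 by limma; exact permutation P = 0.254). It was 0.060 without null library 2, 0.062 without wild-type library 5 and 0.14 without null library 4.

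*Kcnj8* had 69.6, 81.3, 68.2, 83.6 and 41.4 normalized counts in wild type and 48.6, 48.3, 63.5, 58.0 and 68.6 in the null. All 5 null libraries lay below the wild-type mean, yet wild-type library 5 held the lowest value of all 10. The means were 68.8 ± 16.8 (SD, n = 5) and 57.4 ± 9.005 (n = 5), a log2 fold change of -0.23 (SE 0.170, interval -0.59 to 0.12, P = 0.190 by limma; exact permutation P = 0.222). Without wild-type library 5 it was -0.40, with an unadjusted limma P of 0.00998 and an adjusted P of 0.986, and without wild-type library 4 it was -0.15. Of the pericyte markers, *Rgs5* had the authors' means 697 and 496 in wild type and null, *Pdgfrb* 1087 and 1076, and *Cspg4* 1603 and 1580. *Myh11*, the 1 of 10 smooth muscle and pericyte markers with recovered counts, ranged from 32.9 to 206 in wild type, with its highest value in library 3, and from 28.3 to 64.8 in the null. The part of these cells in the *Kcnj8* values was not tested.

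The sulfonylurea receptor genes encode the regulatory subunits that bind nucleotides and drugs such as glibenclamide. *Abcc9* was known only from the authors' means, 1133 normalized counts in wild type and 1229 in the null, 8.49% higher in the null (0.12 on the log2 scale of the mean plus 1), with no spread and no test. *Abcc8* had 243.6, 229.4, 208.7, 173.4 and 117.9 normalized counts in wild type and 198.9, 233.3, 212.7, 209.4 and 199.3 in the null. Wild-type library 5 was far below every other library, while the null values lay close together inside the wild-type range. The means were 195 ± 50.3 (SD, n = 5) and 211 ± 14.01 (n = 5), a log2 fold change of 0.16 (SE 0.174, interval -0.23 to 0.54, P = 0.389 by limma; exact permutation P = 0.603). Without wild-type library 5 the log2 fold change was -0.011, of the other sign, and without wild-type library 1 it was 0.25.

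**Figure D4:**
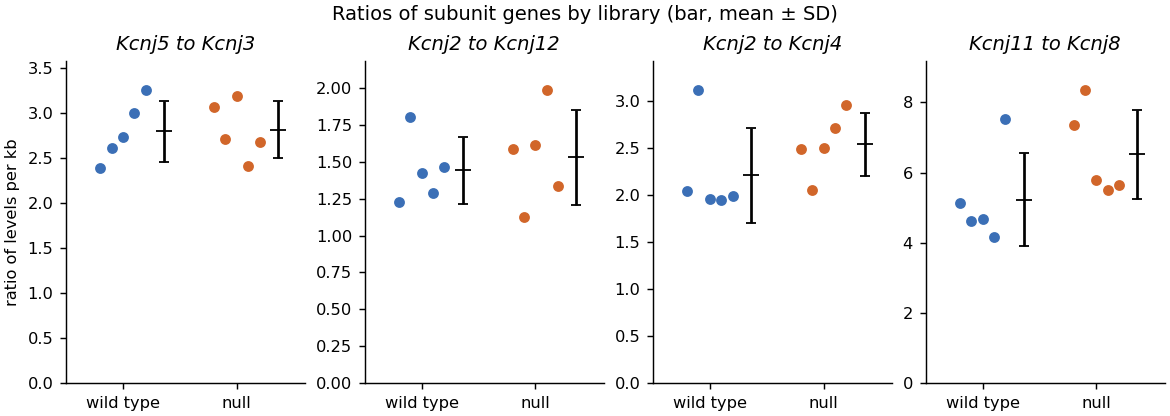
Ratio of 2 subunit genes, each as normalized count per kb of exon, by genotype; each point is 1 library and the bar is the mean ± SD (n = 5), on linear axes from 0. The ratios of the genotypes overlap for each of the 4 pairs, with *Kcnj5* to *Kcnj3* at 2.79 in wild type and 2.81 in the null.

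Ratios between subunit genes are given at the RNA level of the heart tissue, where cell types are pooled, as a description with no test. *Kcnj2* exceeded *Kcnj12* per kb 1.44 ± 0.225 times (SD, n = 5) in wild type and 1.53 ± 0.324 times (n = 5) in the null, and *Kcnj4* 2.21 ± 0.506 times and 2.54 ± 0.335 times. *Kcnj11* exceeded *Kcnj8* 5.23 ± 1.33 times in wild type, with 7.54 in library 5, and 6.52 ± 1.27 times in the null. By the authors' means, *Abcc9* exceeded *Abcc8* per kb 5.62 times in wild type and 5.64 times in the null. In each pair the higher gene was above the lower one in all 10 libraries (for *Abcc9* in both means). The ratios with *Kcnj12*, *Kcnj4*, *Kcnj8* and *Abcc8* depend on the length used, as given with the alternatives.

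Several of these genes varied over the libraries in a like way. *Kcnj5* and *Kcnj11*, a G protein-gated and a KATP pore gene on different chromosomes, deviated together, low in wild-type libraries 3 and 5 and in null library 4 and high in null libraries 2 and 5. There were 3177 protein-coding genes whose mean reached 50 and whose SD reached that of *Kcnj5*, and the one nearest in pattern to *Kcnj5* was *Kcnj11*, with a mean absolute difference of 0.042 log2 units over the 10 libraries, followed by *Frrs1* (0.058). For *Kcnj11* the nearest were *Zfp943* (0.049) and *Sphkap* (0.052), since *Kcnj5*, with an SD of 0.123 against 0.125, did not enter. For *Kcnj3* they were *Ryr3*, a ryanodine receptor (0.053), and *Mfsd7c* (0.087), of 1099 genes. For *Abcc8*, *Kcnh7*, a potassium channel of the ERG family (0.109), and *Baiap2l2* (0.132) were nearest of 282. For *Kcnj2* they were *Myom2*, a protein of the sarcomere M-band (0.095), and *Apln* (0.109), for *Kcnj12* *Panx2* (0.062) and *Scrn2* (0.075), and for *Kcnj8* *Nrtn* (0.202) and *Scx* (0.209). These are descriptions over 10 libraries of both genotypes that share size factors.

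**Figure D5:**
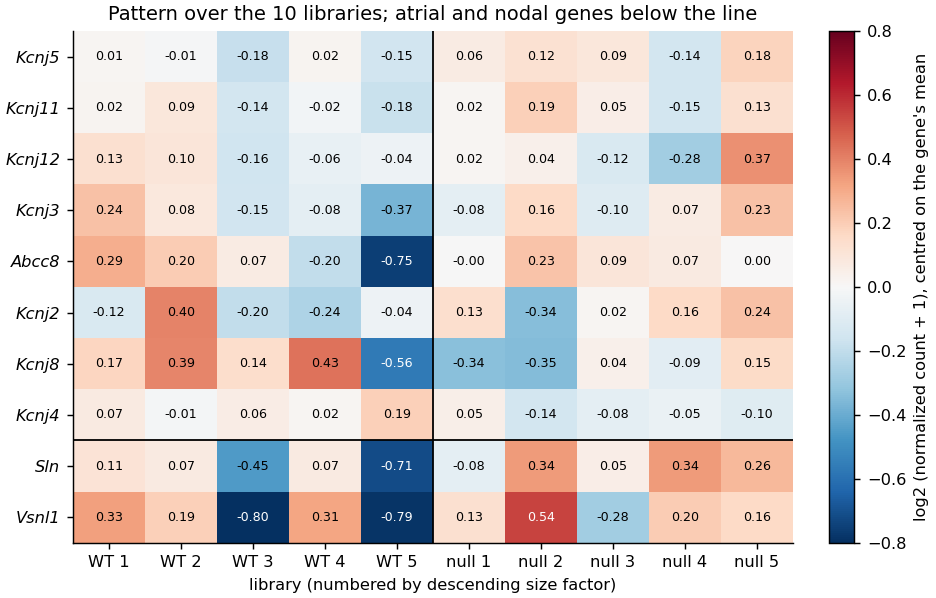
Log2 normalized count plus 1 of 8 genes (rows) in the 10 libraries (columns), centred on the mean of each gene, with *Sln* and *Vsnl1* below the line; red is above and blue below the mean, and the numbers are the centred values. Wild-type library 5 is low for *Abcc8* (-0.75), *Kcnj8* (-0.56), *Kcnj3* (-0.37), *Sln* and *Vsnl1*, and less so for *Kcnj11* (-0.18) and *Kcnj5* (-0.15). The rows of *Kcnj5* and *Kcnj11* run in parallel.

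Wild-type library 5 held the lowest values of *Abcc8*, *Kcnj8*, *Kcnj3* and *Kcnj11*. *Sln* and *Vsnl1* were low there as well, but not every marker of the atria and the node was. *Sln* (sarcolipin) was the 1 of 7 atrial markers with recovered counts. It had 92.2, 90.0, 62.1, 89.8 and 51.7 normalized counts in the wild-type libraries and 81.0 to 109 in the null. Its lowest values were in wild-type libraries 5 and 3. The log2 fold change of *Sln* was 0.37 (unadjusted P = 0.0280 and adjusted P = 0.998 by limma, exact permutation P = 0.0794). *Vsnl1*, a sinoatrial marker, was at 124 and 125 in wild-type libraries 3 and 5, against 178 to 315 in the other 8 libraries. Wild-type library 3 shared the low *Sln* and *Vsnl1* values. It had 208.7 normalized counts of *Abcc8*, 68.2 of *Kcnj8* and 49.9 of *Kcnj4*, near the wild-type means of these genes. *Kcnj3* (334.9), *Kcnj11* (461.1) and *Kcnj2* (247.3) lay below their wild-type means there, and *Kcnj5* (820.4) and *Kcnj12* (87.5) had their lowest wild-type values. *Hcn4*, the pacemaker channel, was at 403 in wild-type library 5, near the wild-type mean of 401. In wild-type library 3 it was at 359, the lowest value of all 10 libraries. The other 6 atrial markers, *Myl7*, *Myl4*, *Nppa*, *Nr2f2*, *Stard10* and *Bmp10*, had log2 ratios of the authors' means, null against wild type, from -0.065 to 0.14. Of the 5 pacemaker and conduction markers tested, *Hcn4* had a log2 fold change of 0.15 (unadjusted P = 0.0173 by limma) and *Isl1* -0.59 (unadjusted P = 0.00989 by limma). For each of them the exact permutation P was 0.0238 and the adjusted P by limma 0.998. The summed level of the 5 markers, *Vsnl1* among them, was 1378 to 1550 in wild type and 1475 to 1581 in the null. It was lowest in wild-type libraries 3 (1378) and 5 (1384), against at least 1468 in the other 8 libraries. The part of the atrial and nodal share of the dissected tissue in the values of *Kcnj3*, *Kcnj5* and *Abcc8* was not tested.

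The other genes of the pathways were taken from 6 lists with 74 genes. Of these, 72 were in the table, 39 were tested, 9 had a mean under 10 and 24 had no recovered counts. By limma 0 of the 39 passed the threshold, against 0.0290% of all genes, and by its voom form also 0. At an unadjusted P under 0.05 stood 3 of 39 in both, against 3.52% of all genes by limma and 352 of 10328 by voom, with 2 higher (*Rgs6*, *Snx27*) and 1 lower (*Rgs4*) in the null, and the signs were 20 above and 19 below 0. Of the 12 tested genes upstream of the Kir3 channels, 5 were above and 7 below 0, with a median log2 fold change of -0.016. *Chrm2*, the muscarinic receptor of the heart, had 250 ± 27.2 normalized counts (SD, n = 5) in wild type and 236 ± 27.0 (n = 5) in the null, and *Adora1*, an adenosine receptor, had 238 ± 35.3 and 229 ± 31.2.

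*Rgs6* and *Rgs4* both encode GTPase-activating proteins that shorten the opening of Kir3 channels. *Rgs6* had 395.8, 367.8, 326.7, 342.6 and 337.3 normalized counts in wild type and 416.7, 419.3, 348.8, 421.0 and 440.0 in the null, where 4 of 5 libraries exceeded the wild-type range. Its log2 fold change was 0.21 (SE 0.0677, unadjusted P = 0.00613 and adjusted P = 0.998 by limma; exact permutation P = 0.0238). *Rgs4* had 66.1, 65.8, 138.4, 76.4 and 62.1 in wild type and 52.2, 21.1, 43.4, 71.9 and 45.7 in the null, with its highest value in wild-type library 3. Its log2 fold change was -0.82 (SE 0.323, unadjusted P = 0.0294 and adjusted P = 0.998 by limma; exact permutation P = 0.0317). Without that library the log2 fold change was -0.61.

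Of the 16 anchoring and trafficking partners tested, 9 were above and 7 below 0, with a median log2 fold change of 0.012. *Snx27*, a sorting nexin of endosomes, had a log2 fold change of 0.085 (SE 0.0367, unadjusted P = 0.0318 by limma, exact permutation P = 0.0159). *Apba1*, an adaptor, had the largest absolute value, -0.40 (exact permutation P = 0.214), and -0.16 without wild-type library 3, and *Stx1a*, a syntaxin that binds KATP channels, had -0.17 (exact permutation P = 0.198). For *Stx1a* the value was -0.099 without wild-type library 3 and -0.10 without null library 2. Of the 4 genes of PIP2 and polyamine synthesis tested, 3 were above and 1 below 0. PIP2 holds Kir channels open and polyamines cause their rectification. *Pip5k1b*, a PIP2-making kinase, had a log2 fold change of 0.11 (unadjusted P = 0.0754 by limma; exact permutation P = 0.0317) and *Srm*, spermidine synthase, -0.11 (exact permutation P = 0.222), which was -0.060 without wild-type library 1.

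Of the adenylate and creatine kinases, which buffer the nucleotides that KATP channels sense, *Ckmt2* had a log2 fold change of 0.18 (exact permutation P = 0.230) and *Ak4* -0.074 (P = 0.373). Without wild-type library 1 these were 0.094 and -0.042, and *Ak4* was -0.026 without null library 2. *Ckmt1* was not tested and had 62.1 normalized counts in wild-type library 3 against at most 4.84 elsewhere. Of the 4 two-pore background channel genes tested, 1 was above and 3 below 0. *Kcnk2* had -0.48 (exact permutation P = 0.492), and -0.10 without wild-type library 3, and *Kcnk1* had 0.17 (P = 0.444). *Kcnk1* ranged from 0.017 (without null library 4) to 0.28 (without null library 3) when 1 library was left out, and *Kcnk2* was -0.26 without null library 5. *Kcnk3*, the most abundant of these, had the authors' means 1135 and 1097. Of the other inward rectifier genes, *Kcnj15* alone was tested, with 69.8 ± 19.3 normalized counts (SD, n = 5) in wild type and 71.2 ± 17.1 (n = 5) in the null and a log2 fold change of 0.038, whose sign turned in 5 of the 10 fits that left out a library. *Kcnj14* had means of 7.95 and 7.73, and *Kcnj6*, *Kcnj9*, *Kcnj10* and *Kcnj16* had means of at most 2.20.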

How the data were processed

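Poly-A RNA from hearts of male E13.5 embryos (5 wildtype, 5 Nos1ap_null) was sequenced in paired ends after stranded library preparation. The authors checked reads with FastQC 0.11.5, trimmed them with Trimmomatic 0.36, aligned them with STAR to transcripts of GENCODE M10 (GRCm38) and counted them per gene with RSEM 1.2.31, using strand. They then computed size factors and compared the groups with DESeq 1.24.0. The signal values that the authors deposited are mean normalized counts of each genotype. The columns of their own comparison (fold changes, P values and the overall mean) were not used.

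Per-library counts were recovered as the whole numbers that, divided by the size factors, give a deposited mean to its last digit. Means under 1000 were searched, 98.9% of them were settled in wild type and 99.1% in the null, and the search was tested on simulated data. The recovered genes hold 26.5% of wild-type normalized counts. The means of *Abcc9*, 1133 in wild type and 1229 in the null, lay above this limit, so its counts were not searched. The authors' counts were taken to be whole numbers, as DESeq needs them, although RSEM estimates need not be. Libraries carry no label, so the numbers 1 to 5 are names only. Depth was estimated from the size factors.

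Log2 of the normalized count plus 1 was tested in limma 3.58.1 (R 4.3.3, trend and robust), over the 10328 protein-coding genes whose mean reached 10 and whose counts were recovered in both genotypes. The authors used DESeq on counts. The deposited values are means, and no count model was fitted here to the counts recovered from them. P values were adjusted by Benjamini-Hochberg over all genes tested, and the thresholds (1% FDR, absolute log2 fold change over 1) are those of the study. For single genes, a two-sided exact permutation test over the 252 arrangements of the libraries was added, with a smallest possible P of 0.00794. Levels were divided by the union of exons in GENCODE M21 (GRCm38), in which 23068 of 23195 gene IDs were found. Named genes are the 9 subunit genes, the *Nos1ap* check, genes of a pathway list with an unadjusted P under 0.05 or among its 2 largest absolute changes, marker genes that move with a library or genotype or check the tissue, and the 2 genes nearest in pattern to each subunit gene with a mean of at least 50. *Chrm2*, *Adora1*, *Ckmt1*, *Kcnk3*, *Kcnj14*, *Kcnj6*, *Kcnj9*, *Kcnj10* and *Kcnj16* were named after their values were seen. The subunit genes and the lists were chosen with earlier results of these data known. Lists covered 6 pathways and the markers of ventricular, atrial, pacemaker, smooth muscle, endothelial, neuronal, pancreatic, lung epithelial, skeletal muscle, erythroid and myeloid cells. Alternatives changed the pseudocount, the filter, the gene types, the weights, the scaling, the threshold and the gene length, and left out each library in turn.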

Additional observations from a re-analysis of the deposited data

Results flagged for a closer look

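Of the 16 groups of 5 libraries (8 subunit genes in each genotype), 1 held a library far from the others. *Kcnj2* had 373.7 normalized counts in wild-type library 2, while the other 4 wild-type libraries had 239.4 to 276.2. The gap to the nearest library was 0.726 of the range of the group, above the limit of 0.71 for 5 values, and chance alone marks about 1 in 20 groups.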

How the results depend on the processing

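The deposited means limit what can be seen: *Abcc9* has no spread, and most reads belong to genes whose counts were not recovered. No paired analysis was possible because the group means carry no replicate numbers. With any other pseudocount, filter, gene type, weighting, scaling or threshold, and with each library left out, 0 subunit genes and 0 pathway genes passed, and the smallest adjusted P of a subunit gene was 0.853. In the 55 fits of subunit genes that kept all libraries, no sign turned. Of 80 fits that left out 1 library, 4 had the other sign. *Kcnj12* ranged from -0.079 (without null library 5) to 0.081 and *Abcc8* from -0.011 (without wild-type library 5) to 0.25. The pathway gene *Kcnj15*, whose fits are not among these 80, ranged from -0.11 (without wild-type library 3) to 0.19.

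The count of subunit genes with an unadjusted P under 0.05 was 0 to 2 when a library was left out. It was 0 without wild-type library 3 or null library 1, 2, 3 or 5, and 2 (*Kcnj5* and *Kcnj11*) without null library 4. Without wild-type library 5 the 1 gene was *Kcnj8* and not *Kcnj5*. It was also 0 when each library was centred on its median. For pathway genes the count was 2 to 4 against 3.

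Lengths moved levels and ratios. With the longest transcript or the longest coding length, 5 of 9 genes kept their rank. Per coding length, *Kcnj2* exceeded *Kcnj12* 3.53 times in wild type and 3.75 times in the null, *Kcnj4* 5.82 and 6.69 times, and *Kcnj11* exceeded *Kcnj8* 8.21 and 10.2 times. *Abcc9* exceeded *Abcc8* 3.79 times in both genotypes per longest transcript, and 5.98 and 5.99 times per coding length. The cause of these moves is the length alone, since the counts were the same.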
